A study of Mus musculus with 2 samples.

Results

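The 10 genes described here encode transcription factors of the AP-1 complex and 2 further immediate early factors, and were found in the file by symbol: Fos, Fosb, Fosl1, Fosl2, Jun, Junb, Jund, Atf3, Egr1 and Myc, 10 of the 32285 genes in the file. They were measured in 1 droplet single-cell library of cultured primary aortic vascular smooth muscle cells (VSMCs) of C57BL/6 mice, made from 4 cultures. The donor animals were 12 weeks old (young) or between 58 and 78 weeks old (old), and each age gave a control culture and a treated one: 100 nM angiotensin II (AngII) over 48 h on young cells, and 20 nM siRNA against the mechanosensitive channel Piezo1 (siPiezo1) on old cells. The cells had been bought from commercial suppliers and were used at low passage, and after harvest with trypsin each culture was stained with a hashtag antibody that carries its own barcode and the cultures were mixed. Whether the old control culture had received the non-targeting siRNA is not stated in the labels or the methods. The labels do not say which hashtag marked which culture: the names below come from a schematic of the experiment that numbers the cultures (young 1, old 2, AngII-treated young 3, siPiezo1-treated old 4) without calling these numbers tags. Results are therefore given by tag number, with the name as a gloss.

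Barcodes were taken as cells from 2218 UMIs (unique molecular identifiers, each standing for 1 captured RNA molecule) and 200 genes upward, and a cell was given a tag where only that hashtag exceeded its cutoff. Of 13045 cells, 3144 carried tag 1, 497 tag 2, 1500 tag 3 and 1529 tag 4, with median depths of 6816.5, 10663, 9453.5 and 9792 UMIs, while 5307 carried no tag and 1068 more than 1. Levels are CPM (UMIs of the gene in 1000000 UMIs), summed over the cells of a tag. Each tag stands for 1 culture, so no difference between cultures could be tested, and all 95% intervals (exact Poisson for levels, exact binomial for ratios and shares) cover counting error only. Piezo1, the target of the siRNA, stood at 71.6, 89.6, 108 and 86.9 CPM in tags 1 to 4, and the ratio of tag 4 to tag 2 was 0.969 (0.874 to 1.08). It therefore does not set the cells labelled siPiezo1 apart from the old cells. The paper describes its young cells as rich in VSMC markers such as Acta2 and Tagln. Yet tag 2 was above tag 1 for Acta2 (1.505 times, 1.445 to 1.567) and Tagln (2.30 times, 2.23 to 2.38). The levels of Acta2 and Tagln run against the age names of tags 1 and 2. In cells thinned to a common depth, the shares with Acta2 had overlapping intervals. They were 42.3% (40.4 to 44.4%) in tag 1 and 44.3% (39.8 to 48.9%) in tag 2. Piezo1 and Ptgs2, which the paper reports as higher in its old cells, went with the names. Tag 2 was above tag 1 for Piezo1 (1.25 times, 1.13 to 1.38) and Ptgs2 (3.62 times, 3.48 to 3.76). These genes therefore do not settle the names. The 9 VSMC markers examined, among them Acta2 and Tagln, all had UMIs and summed to 909, 1720, 1088 and 691 CPM in tags 1 to 4. Myh11, the myosin of contractile smooth muscle, was at 5.27, 7.89, 1.94 and 3.60 CPM. Summed markers of endothelial cells (4.49 to 9.04 CPM), macrophages (6.15 to 11.7 CPM) and T cells (0.67 to 1.55 CPM) were low in every tag, with C1qa, Cd3e, Cd3d and Cd8a at 0. Those of fibroblasts all had UMIs too and summed to 1065, 764, 1111 and 1011 CPM, above the VSMC sum in tags 1, 3 and 4. In tag 1 the fibroblast sum came mostly from Col1a1 (541 CPM) and Dcn (448 CPM), with Pdgfra at 63.8 and Dpt at 10.7 CPM. The VSMC sum there came mostly from Acta2 (378 CPM) and Tagln (415 CPM). The paper itself reports collagen I RNA in its VSMCs, at a higher level in old cells. These sums therefore rest mainly on few genes and do not tell VSMCs from fibroblasts.

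AP-1 is a dimer of basic leucine zipper proteins. Jun proteins (JUN, JUNB, JUND) pair among themselves or with Fos proteins (FOS, FOSB and the Fos-related antigens FRA1 and FRA2, encoded by Fosl1 and Fosl2), and bind the element TGACTCA or the related cAMP response element. Fos, Fosb, Jun, Junb, Atf3, Egr1 and Myc are classic immediate early genes, switched on within minutes by growth factors, stretch, AngII or stress through ERK, JNK and serum response factor, and their RNAs are short-lived. In VSMCs AP-1 and EGR1 are known for their part in proliferation, matrix turnover and the response to injury.

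Fos lies on chromosome 12 (85473890 to 85477273, plus strand), Jun on chromosome 4 (95049034 to 95052222, minus strand) and Fosb on chromosome 7 (19302696 to 19310051, minus strand), by the GENCODE vM21 annotation of GRCm38. No source used here names the build behind the deposited counts. Of the 5 genes whose level in tag 3 was at 1/1.5 or less of that in tag 1, the promoters of these 3 are printed, whose RefSeq start lies at or close to the start of the gene in this annotation. Each runs 5′ to 3′ from 250 bases before to 50 after the RefSeq start in GRCm38.p6, with capitals for TGACG (the core of the cAMP response element), TATAAA or TGACATCA (the AP-1 element known in the Jun promoter).
Fos, chr12:85473640-85473939, plus strand: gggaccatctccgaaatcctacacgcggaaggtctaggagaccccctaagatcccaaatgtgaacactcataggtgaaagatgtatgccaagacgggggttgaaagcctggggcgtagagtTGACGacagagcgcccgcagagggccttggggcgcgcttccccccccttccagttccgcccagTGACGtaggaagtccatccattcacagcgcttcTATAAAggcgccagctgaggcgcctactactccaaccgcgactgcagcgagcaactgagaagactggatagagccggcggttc
Fosb, chr7:19309996-19310295, minus strand: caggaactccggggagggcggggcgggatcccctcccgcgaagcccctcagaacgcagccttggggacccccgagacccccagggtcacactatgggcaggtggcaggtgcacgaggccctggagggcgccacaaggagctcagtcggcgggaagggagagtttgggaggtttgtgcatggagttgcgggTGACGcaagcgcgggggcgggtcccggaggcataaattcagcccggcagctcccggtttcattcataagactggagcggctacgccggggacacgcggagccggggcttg
Jun, chr4:95052173-95052472, minus strand: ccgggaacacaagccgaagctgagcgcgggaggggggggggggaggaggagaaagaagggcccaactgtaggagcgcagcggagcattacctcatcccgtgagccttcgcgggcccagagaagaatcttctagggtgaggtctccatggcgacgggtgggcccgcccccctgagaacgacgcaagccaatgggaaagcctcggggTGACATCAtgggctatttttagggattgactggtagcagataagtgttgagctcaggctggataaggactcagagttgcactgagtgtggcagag
The Fos window held TGACG 129 and 66 bases and TATAAA 33 bases upstream of the start, that of Fosb held TGACG 60 bases upstream, and that of Jun held TGACATCA 45 bases upstream. Read on both strands, TGACG occurred in 20.8%, TATAAA in 13.6% and TGACATCA in 3.62% of 32851 promoters of this length. The complete cAMP response element TGACGTCA (1.79% of promoters), TGACTCA (5.20%), CACGTG (7.15%) and the CArG box of serum response factor (1.63%) were also searched, and none of the 3 windows held them in these letters. Elements more than 250 bases upstream of the start lie outside the windows and were not searched. The EGR1 element GCGGGGGCG (2.91%) was found in the Fosb window. The table held promoters for 7 of the 10 genes, and those of Fosl1, Egr1 and Myc are named only.

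Fos stood highest in tag 1 and Fosl1 lowest there. Fos, the founding Fos protein, was at 105, 49.5, 38.3 and 68.0 CPM in tags 1 (young), 2 (old), 3 (young + AngII) and 4 (old + siPiezo1). Its 4 intervals, of 101 to 109, 43.8 to 55.7, 35.2 to 41.6 and 64.1 to 72.2 CPM, did not overlap. Fosb, whose product pairs with Jun proteins as FOS does, was at 60.5, 48.1, 18.7 and 49.9 CPM in tags 1 to 4. Its level in tag 3 was far below the others, and tags 2 and 4 were not separated by their intervals (42.5 to 54.2 and 46.5 to 53.4 CPM). Fosl1, which encodes FRA1 and lacks the strong activation domain of FOS, was at 63.1, 99.7, 97.4 and 106 CPM in tags 1 to 4. Tag 1 (59.9 to 66.3 CPM) stood below the other 3, whose intervals overlapped one another. Fosl2, which encodes FRA2, was at 69.3, 101, 81.4 and 107 CPM, again lowest in tag 1, with tags 2 and 4 not separated by their intervals.

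Jun was the Jun gene that differed most between tags. Jun, whose product is a strong activator and a target of JNK, was at 121, 157, 65.2 and 175 CPM in tags 1 to 4, with tag 3 lowest and tags 2 and 4 highest. The interval of tag 2 (147 to 168 CPM) ended just below that of tag 4 (169 to 182 CPM). Junb, whose product is known as a weaker activator that can oppose JUN, was at 177, 167, 150 and 206 CPM, highest in tag 4 and lowest in tag 3. Jund, which is expressed broadly in resting cells, was at 198, 194, 114 and 190 CPM, with only tag 3 apart, since the intervals of tags 1, 2 and 4 overlapped (193 to 204, 182 to 206 and 183 to 197 CPM).

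Of the 3 remaining genes, Egr1, a zinc finger factor induced by serum response factor, was at 147, 147, 115 and 195 CPM in tags 1 to 4. Its levels in tags 1 and 2 were not separated by their intervals, tag 3 lay below both and tag 4 above. Myc, whose product with MAX drives ribosome and nucleotide synthesis, was at 25.4, 26.5, 32.8 and 31.0 CPM. The intervals of tags 3 and 4 overlapped, and that of tag 2 (22.4 to 31.2 CPM) overlapped those of all other tags. Atf3, a stress-induced factor that pairs with Jun proteins, was sparse: 105, 20, 19 and 78 UMIs, or 4.35, 3.59, 1.27 and 4.84 CPM. Its interval in tag 3 (0.77 to 1.99 CPM) lay below those of the other tags, which overlapped.

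**Figure D1:**
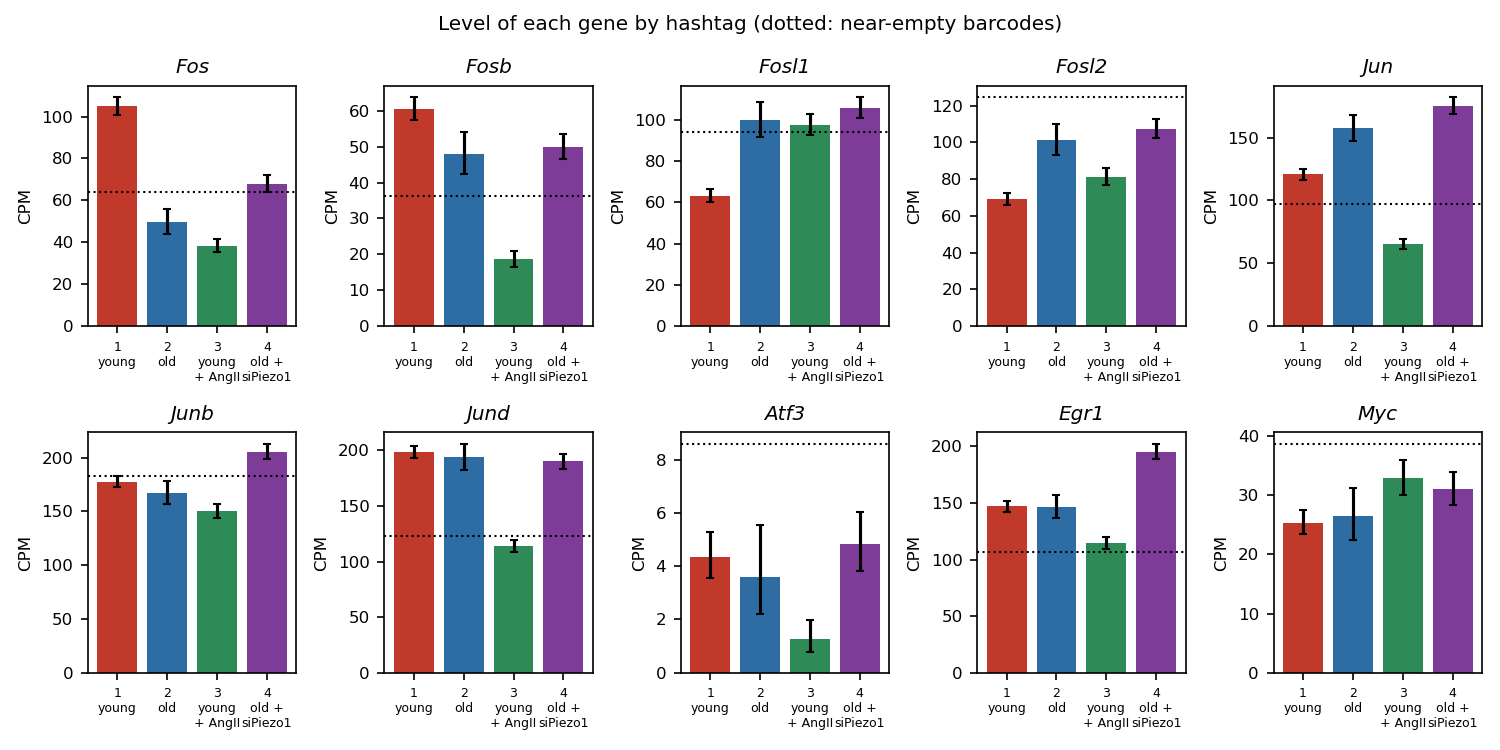
Level of each of the 10 genes in CPM (vertical axis, from 0) in the cells of each hashtag (horizontal axis), with exact Poisson 95% intervals for counting error as bars and the level in near-empty barcodes as a dotted line. Fos stands at 105 CPM in tag 1 and at 38.3 CPM in tag 3, and Fosl1 at 63.1 CPM in tag 1 and 97.4 CPM in tag 3.

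The same transcripts were found in near-empty barcodes, and the source of the RNA there was not tested. Over 1299325 near-empty barcodes of 1 to 100 UMIs, Fos was at 63.9 CPM, Fosb at 36.3, Jun at 97.3, Jund at 123, Egr1 at 106 and Fosl1 at 93.99 CPM, and Fosl2 (125), Atf3 (8.59) and Myc (38.6) had higher values there than in any tag, with intervals that overlapped that of the highest tag. The library holds no group of cells that should lack these genes, so a share of cells with a UMI could not be set against such a group. In cells thinned to 5000 UMIs, Fos was detected in 36.9%, 21.2%, 16.0% and 28.5% of cells of tags 1 to 4 (46.3%, 33.8%, 26.5% and 42.1% before thinning), the same order as its CPM. Jun was detected in 38.9%, 47.1%, 22.9% and 55.4% of thinned cells (48.8%, 69.0%, 37.7% and 74.7% before thinning) and Fosl1 in 24.9%, 34.2%, 39.1% and 39.5% (33.4%, 59.8%, 55.1% and 59.9%). Tags 2 and 3 stood in the opposite order by the thinned share of Fosl1 and by its CPM, so no order between them is read. The part of RNA from outside the cell in these shares was not tested.

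The first comparison set tag 2 (old) against tag 1 (young), with the names as a gloss only. Fos in tag 2 (old) was at 0.472 (0.415 to 0.534) of its level in tag 1 (young), and Fosl1 was 1.58 times as high (1.43 to 1.74). Fosl2 (1.46, 1.33 to 1.61) and Jun (1.30, 1.21 to 1.41) were higher by less than 1.5 times, and Fosb was at 0.794 (0.694 to 0.905). Junb (0.942), Jund (0.977), Egr1 (0.999), Myc (1.05) and Atf3 (0.824, 0.484 to 1.34) had intervals that held 1. Thus 1 of the 10 genes was at 1.5 times or more, where 11.7% of the 12533 genes with at least 100 UMIs were, and 1 of 10 was at 1/1.5 or less, where 13.5% of all genes were. The median log2 ratio of the 10 genes was -0.02, against 0.03 over all genes. Fosl1 was under 1.5 times in cells with under 0.5% mitochondrial UMIs (1.32, 1.07 to 1.63) and in cells with no G2/M UMI (1.42, 1.18 to 1.69). Jund was at 1.30 (1.16 to 1.46) in cells with under 0.5% mitochondrial UMIs and at 0.795 (0.697 to 0.904) in those with 1 to 2%, and Atf3 ran from 0.541 to 2.06 over 13 alternatives.

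The second comparison set tag 3 (young + AngII) against tag 1 (young), and shares tag 1 with the first. Fosb in tag 3 (young + AngII) was at 0.310 (0.272 to 0.352) of its level in tag 1, Fos at 0.365 (0.333 to 0.400), Jun at 0.540 (0.502 to 0.581) and Jund at 0.572 (0.541 to 0.605). Atf3 was at 0.292, with an interval from 0.169 to 0.479 that reflects its 19 UMIs. Egr1 (0.779, 0.735 to 0.825) and Junb (0.847) were lower by less than this fold, whereas Fosl1 was 1.55 times as high (1.44 to 1.66), Myc 1.29 times (1.15 to 1.46) and Fosl2 1.17 times. So 5 of the 10 genes were at 1/1.5 or less, where 11.1% of all genes were, and 1 of 10 at 1.5 times or more, where 8.64% were. The median log2 ratio was -0.58 over the 10 genes and 0.02 over all genes. In cells with 2% or more mitochondrial UMIs neither Jun (0.798) nor Fosl1 (1.31) passed the fold, and Fosl1 was also under it in cells with 1% to 20% (1.47, 1.29 to 1.67).

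The third comparison set tag 4 (old + siPiezo1) against tag 2 (old), and shares tag 2 with the first. None of the 10 genes reached 1.5 times in tag 4 (old + siPiezo1) against tag 2, where 5.35% of all genes did, and none was at 1/1.5 or less, where 3.61% of all genes were. Fos was 1.38 times as high (1.20 to 1.57), Egr1 1.33 times (1.23 to 1.44), Junb 1.23 times (1.14 to 1.32) and Jun 1.11 times (1.03 to 1.20), each with an interval above 1. Fosb (1.04), Fosl1 (1.06), Fosl2 (1.06), Jund (0.980), Myc (1.17, 0.972 to 1.42) and Atf3 (1.35, 0.818 to 2.33) had intervals that held 1. The median log2 ratio was 0.19, against 0.02 over all genes. Fos passed 1.5 times in cells that had Y-linked transcripts but none of Xist (1.80, 1.29 to 2.57, from 97 and 211 cells) and in cells with no G2/M UMI (1.51, 1.23 to 1.88). Jun turned direction in the cells with Y-linked transcripts, at 0.736 (0.612 to 0.886). Where the own tag count was at least 3 times the next, Egr1 was at 1.60 (1.40 to 1.84) and Atf3 at 2.51 (1.05 to 7.27), and Atf3 ran from 0.838 to 2.51 over 13 alternatives, at 1.5 or more in 3 of them.

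**Figure D2:**
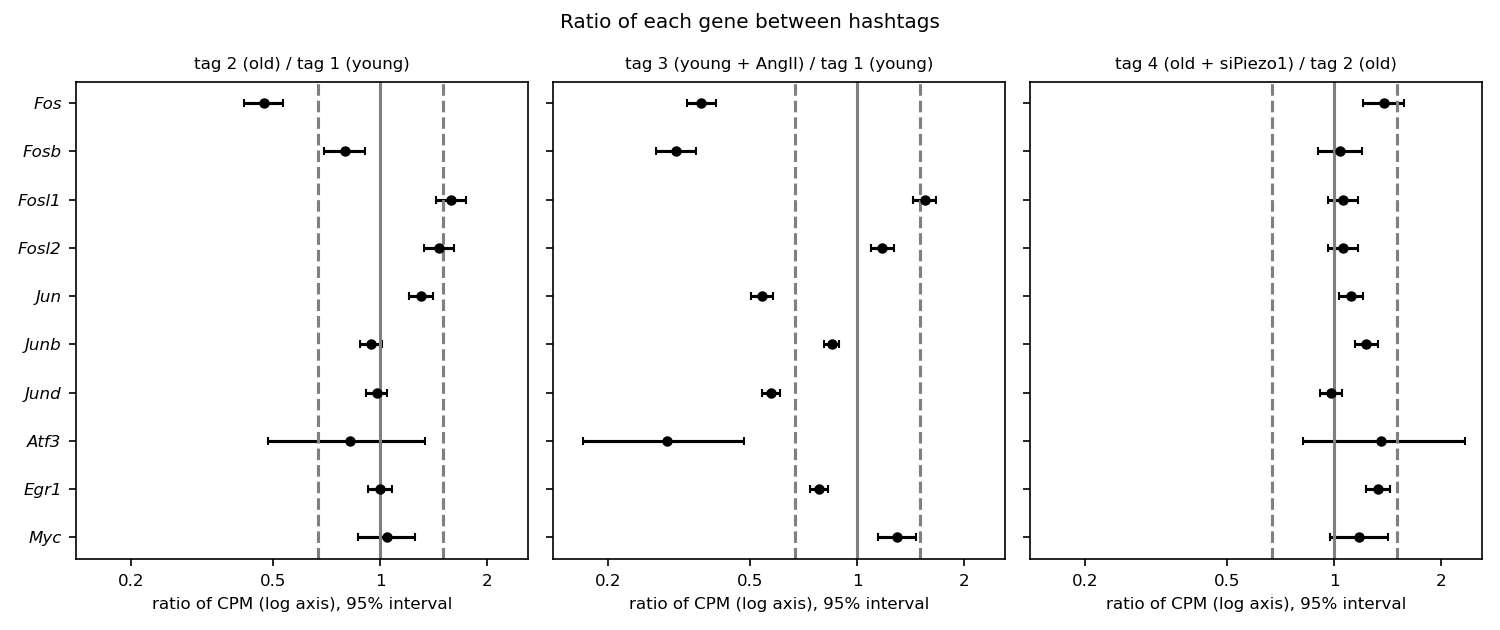
Ratio of CPM between 2 hashtags (horizontal log axis) for each of the 10 genes, in 3 panels, with exact binomial 95% intervals for counting error as bars, a solid line at 1 and broken lines at 1.5 and 1/1.5. Fos, Fosb, Jun, Jund and Atf3 lie left of the lower line in tag 3 against tag 1, Fosl1 lies right of the upper line in 2 panels, and no gene passes a line in tag 4 against tag 2.

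Several other properties moved with the tags, and their part in these ratios was not tested. The median share of mitochondrial UMIs was 1.08%, 1.84%, 0.224% and 1.86% in tags 1 to 4, the 4 Y-linked genes examined summed to 156, 47.0, 143 and 45.5 CPM, and the 12 interferon response genes to 5167, 348, 874 and 346 CPM. The VSMC markers summed to 909, 1720, 1088 and 691 CPM: 6 of 8 were at 1.5 times or more in tag 2 against tag 1, and 7 of 8 at 1/1.5 or less in tag 4 against tag 2, among them Acta2 (0.306, 0.290 to 0.322) and Cnn1 (0.292, 0.240 to 0.355). The G2/M genes summed to 947, 896, 596 and 995 CPM and the S phase genes to 402, 447, 539 and 499 CPM. The 11 genes of heat shock and cell dissociation stress, a response that can come with immediate early genes at cell harvest, summed to 6196 to 6322 CPM in all 4 tags. Within this list the inducible HSP70 genes were lower in tag 3 than in tag 1, Hspa1a at 0.178 (0.0859 to 0.332) and Hspa1b at 0.437 (0.325 to 0.581), and in tag 2 Hspa1b was at 0.340 (0.198 to 0.549) and Hspb1 at 0.524 while Hsph1 was 1.75 times as high. Hspa1b was 2.10 times as high in tag 4 as in tag 2 (1.27 to 3.67).

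Tag 3 was also set against tag 1 within 4 ranges of mitochondrial content, and Fos, Fosb and Jund were lower in each range. The ranges were chosen after seeing the data and are wide, so content is not matched within them. The part of mitochondrial content in the ratios was not tested. Fos in tag 3 was at 0.388, 0.404, 0.332 and 0.505 of its level in tag 1 in cells with under 0.5%, 0.5 to 1%, 1 to 2%, and 2% or more mitochondrial UMIs, each interval below 1. Fosb was at 0.345, 0.319, 0.398 and 0.389 and Jund at 0.589, 0.542, 0.475 and 0.575 in the same ranges. Jun moved closer to 1 in the highest range: 0.550, 0.488, 0.604 and 0.798 (0.639 to 0.988). Egr1 was at 0.901, 1.04, 0.729 and 0.674, with an interval that held 1 only between 0.5 and 1% (0.896 to 1.20). Fosl1 was at 1.58, 1.70, 1.53 and 1.31, the last interval reaching down to 1.002. Atf3, the sparsest gene, was at 0.187, 0.455 (0.0832 to 1.66) and 0.697 (0.281 to 1.52) in the first 3 ranges, so that 2 intervals held 1, and had no UMI in tag 3 at 2% or more, where the interval reached up to 0.874.

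**Figure D3:**
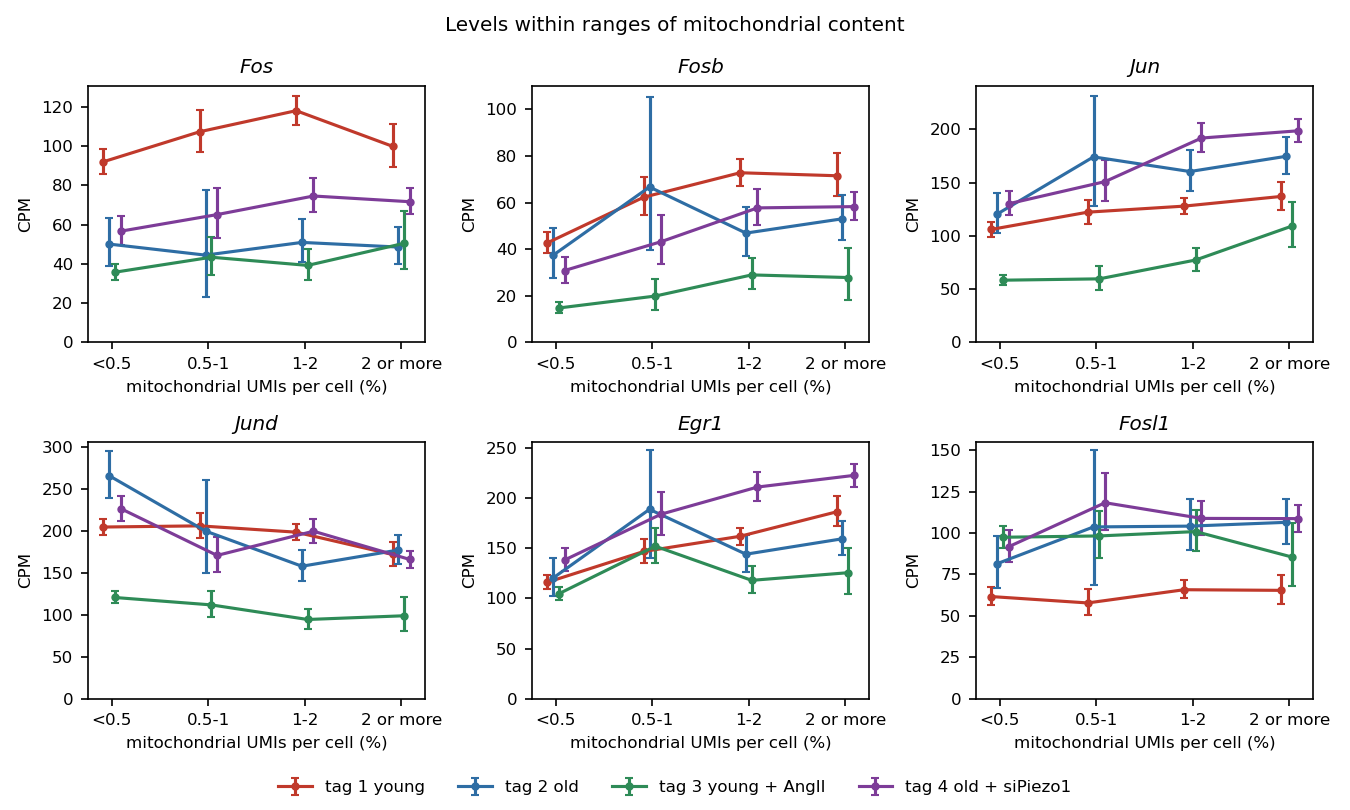
Level in CPM (vertical axis, from 0) of 6 of the genes by range of mitochondrial UMIs per cell in percent (horizontal axis), with 1 line per hashtag and exact Poisson 95% intervals as bars. Fos, Fosb and Jund are lower in tag 3 than in tag 1 in each range, and Jun in tag 3 comes closest to tag 1 in the highest range, at 0.798 of it.

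The make-up of the Fos family differed between tags more than its total. Summed over the 4 genes, the family was at 298, 299, 236 and 331 CPM in tags 1 to 4, and tags 1 and 2 were not separated by their intervals (291 to 305 and 284 to 313 CPM). Fos gave 35.2% of these UMIs in tag 1 (34.1 to 36.3%) and 16.6%, 16.2% and 20.6% in tags 2 to 4. Fosl1 gave 21.2% in tag 1 and 33.4%, 41.3% and 31.9% in the others, and Fosl2 23.3% against 33.9%, 34.5% and 32.5%. Fosb gave 20.3%, 16.1%, 7.95% and 15.1%. So tags 1 and 2 held about the same sum of Fos family RNA. Fos and Fosb gave the larger part of the family in tag 1, and Fosl1 and Fosl2 in the other 3 tags. These are shares of RNA molecules counted from their 3′ ends, which do not scale with transcript length.

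The Jun family summed to 497, 518, 329 and 571 CPM in tags 1 to 4. Jun gave 24.3%, 30.3%, 19.8% and 30.7% of these UMIs, Junb 35.7%, 32.2%, 45.7% and 36.01%, and Jund 40.0%, 37.4%, 34.5% and 33.3%. Tag 3 thus had both the lowest sum and the largest share of Junb, the member whose own level differed least from tag 1.

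**Figure D4:**
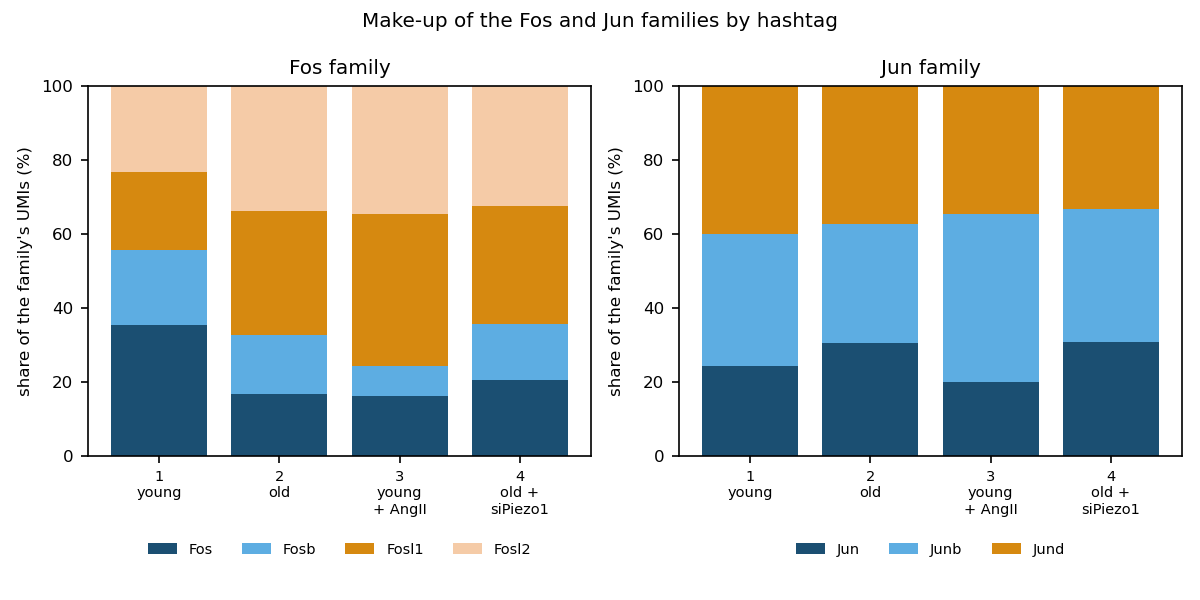
Stacked bars of the share of each family's UMIs in percent (vertical axis, from 0) given by each gene, per hashtag (horizontal axis), for the Fos family on the left and the Jun family on the right. Fos gives 35.2% of the Fos family in tag 1 and 16.2% in tag 3, where Fosl1 gives 41.3%.

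Single cells held few molecules of any of the genes. After thinning to 5000 UMIs, which left out 747, 21, 136 and 114 cells of tags 1 to 4, the median cell had UMIs of 3, 3, 3 and 4 of the 10 genes. At least 5 of the 10 were detected in 21.6%, 21.0%, 9.31% and 32.9% of cells, with intervals of 7.82 to 10.98% for tag 3 and 30.4 to 35.4% for tag 4, both clear of those of tags 1 (19.9 to 23.3%) and 2 (17.4 to 24.9%). No gene was detected in 2.63%, 1.26%, 4.55% and 1.63% of cells. The 5% of cells with the most UMIs of the 10 genes held between 12.2% and 12.8% of those UMIs in each tag, so few cells did not hold most of the signal. The ratio of variance to mean over cells was 1.37 for Fos, 1.55 for Jun, 1.40 for Egr1 and 1.09 for Fosl1 in tag 1, where the median of 6035 genes was 1.08.

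**Figure D5:**
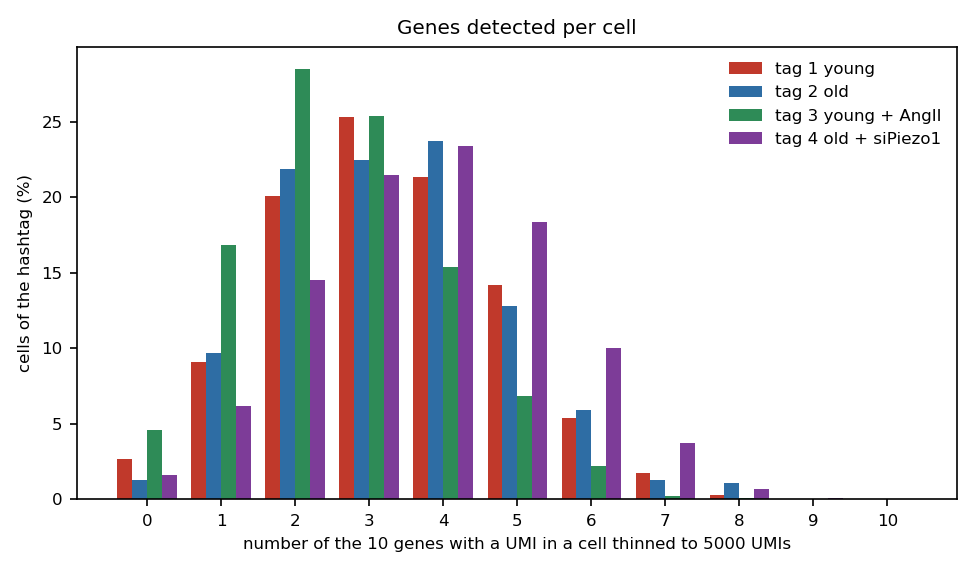
Share of the cells of each hashtag in percent (vertical axis, from 0) by the number of the 10 genes with a UMI (horizontal axis) in cells thinned to 5000 UMIs. Tag 3 is shifted to lower numbers, with 9.31% of cells at 5 or more, and tag 4 to higher numbers, with 32.9%.

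The correlations between the genes from cell to cell were low in these sparse counts. The mean of the 4 within-tag Pearson correlations of log2(1 + UMIs) ran from -0.016 to 0.110 over the 45 pairs, with a median of 0.027, over 2397, 476, 1364 and 1415 thinned cells that share 1 library and 1 depth. The highest were Junb with Egr1 (0.110) and Fos with Fosb (0.103). A Fosb UMI was found in 28.7%, 27.7%, 12.8% and 30.3% of the cells with a Fos UMI in tags 1 to 4, against 21.2%, 19.5%, 7.33% and 18.4% of those without one. The intervals of both shares were apart in tags 1 and 4 and overlapped in tags 2 and 3. Among 6035 genes, those most alike to Fos were Cp, Pcdh9 and Sox5 (0.136, 0.136 and 0.131), for Jun Ank3 and Mecom (0.145 and 0.125), for Junb Btg2, Egr1 and Cp (0.126, 0.110 and 0.102) and for Egr1 Pcdh9, Slit2 and Ank3 (0.181, 0.172 and 0.166). Fosb was near to Pcdh7 and Zfpm2, Fosl1 to Hnrnpab, Mki67 and H3f3b, Fosl2 to Zfpm2, Pcdh7 and Peak1, Jund to Eef1a1, Zfp36l1 and Rpl19, Atf3 to Trp53inp1, Snhg15 and Snhg1 and Myc to Ugcg, Cebpg and Klra4, with mean correlations from 0.065 to 0.132. Correlations this weak in sparse counts describe these cells only. Counting noise in such counts lowers a correlation, so low values do not show that the genes vary independently.

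Jund and Junb were lower in cells with many cell cycle UMIs. Between the cells in the highest and the lowest quartile of summed G2/M UMIs (with ties kept together, so that the groups are unequal), the ratio of Jund was 0.822, 0.441, 0.707 and 0.643 in tags 1 to 4, with upper bounds of 0.918, 0.592, 0.867 and 0.746. By S phase UMIs it was 0.731, 0.557, 0.717 and 0.528, all with intervals below 1. Junb was at 0.848, 0.645, 0.864 and 0.626 by G2/M UMIs, where the interval of tag 3 held 1, and at 0.824, 0.719, 0.796 and 0.600 by S phase UMIs, with all 4 intervals below 1. Fos and Fosb were lower in the cycling quartile of tag 4, at 0.557 (0.433 to 0.712) and 0.402 (0.293 to 0.544) by G2/M UMIs, while Fosl1 was 1.26 times as high there (1.05 to 1.52). In tag 2 Fosl1 was 1.55 times as high in that quartile (1.12 to 2.15). In tags 1 and 3 its interval held 1 (1.05, 0.862 to 1.28, and 1.13, 0.932 to 1.37). The sparse Atf3 was 3.19 times as high in that quartile of tag 1 (1.43 to 7.64, from 10 and 20 UMIs), and its intervals in tags 2 to 4 held 1. The intervals of Fos and Fosb by G2/M UMIs held 1 in tags 1 to 3. By S phase UMIs Fos was at 0.801 (0.673 to 0.951), 0.760 (0.424 to 1.33), 0.653 (0.447 to 0.937) and 0.536 (0.405 to 0.702) in tags 1 to 4, so its interval held 1 only in tag 2.

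Cells with the most UMIs of VSMC markers had less of most of the genes in tag 4 but not in tag 1. In tag 4, 8 of the 10 had intervals below 1, among them Egr1 at 0.559 (0.475 to 0.657), Fosb at 0.486 (0.338 to 0.684), Fos at 0.621 and Jun at 0.637. In tags 2 and 3, 3 and 2 of the 10 did, and in tag 1 only Jun (0.788, 0.675 to 0.920). Whether the tags differ in this was not tested. The share of all genes with such an interval was not computed, so these counts are not read as particular to the 10 genes. In tag 1, where the interferon genes were high, cells of their highest quartile had 1.61 times as much Fos (1.36 to 1.90) and 1.25 times as much Jund (1.11 to 1.40) as those of the lowest. Egr1 (0.766, 0.672 to 0.872), Fosl1 (0.778, 0.629 to 0.959) and Jun (0.837, 0.723 to 0.970) were lower there. In tags 2 to 4 the intervals of Fos and Fosl1 held 1 in this split. Tag 3 went the same way as tag 1 for Jun (0.561, 0.413 to 0.755), Egr1 (0.741, 0.602 to 0.910) and Jund (1.28, 1.05 to 1.56). Tag 2 did so for Jun (0.694, 0.510 to 0.937). The other intervals of Jun, Egr1 and Jund in tags 2 to 4 held 1. Cells that were deep before thinning also differed: by total UMIs Jun was at 1.32, 0.630, 1.91 and 0.712 in tags 1 to 4, and Fos at 0.695 in tag 1 and 0.485 in tag 4. The part of depth in the other splits was not tested.

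Other genes of the pathway are given by lists, none of which is tested. The shares of all genes at 1.5 times or more and at 1/1.5 or less, against which the counts stand, were 11.7% and 13.5% in tag 2 against tag 1, 8.64% and 11.1% in tag 3 against tag 1, and 5.35% and 3.61% in tag 4 against tag 2. Of 27 other immediate early genes with at least 100 UMIs, 6 were at 1.5 times or more and 8 at 1/1.5 or less in tag 2 against tag 1, 5 and 5 in tag 3 against tag 1, and 2 and 1 in tag 4 against tag 2, with median log2 ratios of -0.05, -0.08 and 0.21. In tag 2, Egr2, a close relative of Egr1, was at 0.106 (0.0341 to 0.251) of tag 1 (8.46 and 0.896 CPM) and Gadd45g, a growth arrest gene, at 0.254 (161 and 40.9 CPM), whereas the nuclear receptor gene Nr4a2 was 2.83 times as high (18.9 and 53.4 CPM). In tag 3, Ccn2, a matricellular gene induced by stretch and by YAP, was 2.25 times as high as in tag 1 (163 and 365 CPM) and Klf10 1.98 times, and Socs3, a feedback inhibitor of cytokine signaling, was at 0.424. In tag 4, Nr4a3 (1.90, 1.21 to 3.10) and Socs3 (1.70) were higher than in tag 2 and Ccn2 was at 0.620.

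Upstream of the 10 genes, most of the kinases (such as ERK and JNK) and factors stayed within this fold. Of 21 with at least 100 UMIs, 1 was at 1.5 times or more in tag 2 against tag 1 (Elk3, 1.51, 1.39 to 1.63), 1 in tag 3 against tag 1 (Srf, 1.68, 1.30 to 2.19, at 4.89 and 8.24 CPM) and none in tag 4 against tag 2, and none was at 1/1.5 or less in any. Of 15 genes for ERK and JNK phosphatases and feedback inhibitors, which turn the pathway off and are themselves induced by it, 6 were higher and 2 lower by this fold in tag 2, 5 and 2 in tag 3, and 0 and 1 in tag 4. Dusp1, an immediate early phosphatase of JNK and p38, was at 0.522 (0.466 to 0.582) in tag 2 against tag 1 (124 and 64.5 CPM), while Spry4 was 2.70 times and Dusp6 1.69 times as high. In tag 3, Dusp5, an ERK phosphatase, was 2.72 times as high (35.3 and 96.1 CPM) and Dusp10 1.84 times, with Spry1 at 0.485. In tag 4, Spry1 was at 0.407 of tag 2 (0.203 to 0.828, 3.05 and 1.24 CPM).

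Of the 10 partners and relatives of AP-1 with at least 100 UMIs, 1 was higher by this fold in tag 2 and 1 in tag 3 than in tag 1, and 1 was lower in tag 3. Mafg was 1.55 times as high in tag 2 as in tag 1, and Maff, a small Maf protein that lacks an activation domain, 1.93 times as high in tag 3 as in tag 1 (26.3 and 50.9 CPM), with Maf at 0.540. Of 17 genes known as AP-1 targets, 8 were higher and 2 lower in tag 2 than in tag 1 by this fold, 10 and 0 in tag 3, and 1 and 0 in tag 4 against tag 2, with median log2 ratios of 0.58, 0.75 and -0.09. Over all genes 11.7% were higher and 13.5% lower in tag 2, and 8.64% and 11.1% in tag 3. The protease genes Mmp10 and Plau were 5.16 times (76.4 and 394 CPM) and 5.11 times (3.90 and 19.9 CPM) as high in tag 2 as in tag 1, and Ptgs2, which encodes the inducible cyclooxygenase, 3.62 times (220 and 797 CPM). In tag 3, Mmp13 was 4.87 times (18.2 and 88.4 CPM), Hbegf, a growth factor ligand of the EGF receptor, 3.67 times and Ptgs2 3.08 times as high as in tag 1, and Mmp3 was 1.85 times as high in tag 4 as in tag 2 (463 and 857 CPM). No link between these genes and the levels of the 10 factors was tested.

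Around Myc, 1 of 9 partners and antagonists was higher and 1 lower in tag 2 than in tag 1 (Mnt, 1.57, and Mxd4, 0.658), 2 were lower in tag 3 than in tag 1 (Mxd1, 0.510, and Mxi1, 0.633), both antagonists that compete for MAX, and 1 was higher in tag 4 than in tag 2 (Mxd3, 1.66, 1.05 to 2.72). Of 18 growth genes known to be regulated by MYC, 1, 4 and 0 were at 1.5 times or more in the 3 comparisons and none was at 1/1.5 or less, with median log2 ratios of 0.27, 0.46 and -0.003. Odc1, the rate-limiting enzyme of polyamine synthesis, was at 329 CPM in tag 1 and 1265 CPM in tag 2 (3.85 times, 3.72 to 3.97), and 1.74 times as high in tag 3 as in tag 1, where Cad, an enzyme of pyrimidine synthesis, was 1.97 times as high (1.72 to 2.26). Myc itself was at 1.05 times its tag 1 level in tag 2, with an interval that held 1 (0.868 to 1.25), and at 1.29 times in tag 3.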

How the data were processed

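One pooled library of hashed mouse VSMCs was sequenced with the Chromium 3′ v3.1 kit. The authors deposited raw UMI counts, made with Cell Ranger 4, for 32285 genes and 4 hashtags over 2472397 barcodes with no filter on cells (138733332 gene UMIs). No source used here names the genome build. The minimum for a cell was 2218 UMIs, or 1/10 of the 99th percentile of UMI totals among the 10000 deepest barcodes, and 200 genes. A tag needed more than 36, 52, 61 or 41 hashtag UMIs for tags 1 to 4, no other hashtag passing. Cells with more than 1 tag were left out and no doublet caller was run, so doublets within a tag remain. Sums, ratios, exact intervals and thinning used Python 3.11.15, numpy 2.4.6, scipy 1.17.1 and pandas 2.3.3. The ratios and intervals were tested on simulated Poisson counts, which leave out the spread between cells and between cultures. That test therefore covers the arithmetic and counting error only. The members and lists were chosen with earlier results of these data known. Beyond the 10 genes and Piezo1, the genes named were, per list and comparison, up to 3 with the largest ratio among those with at least 100 UMIs, and per member the 3 with the highest mean correlation among genes in at least 10% of thinned cells, with some items not reported here. Defining cell type markers were named after their values were seen. Alternatives changed cell filters, tag rules, scaling and fold.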

Additional observations from a re-analysis of the deposited data

How the results depend on the processing

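Each tag is 1 culture, so no replicate could be left out, and the intervals leave out the spread between cultures. No paired analysis was possible because the labels number no replicates and no result comes from a test. Tag 2 holds the fewest cells (497), which widens its intervals, and hashtag counts in tags 2, 3 and 4 (medians of 76, 113 and 67 UMIs) stood closer to those of cells with no tag (15, 31 and 20) than in tag 1 (364 against 10).

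Over 13 alternatives none of the ratios of Fos in tag 2 or tag 3 against tag 1 (0.360 to 0.544 and 0.351 to 0.505), of Fosb (0.259 to 0.395), Jund (0.4996 to 0.617) or Atf3 (0 to 0.493) in tag 3 against tag 1 crossed 1/1.5. The alternatives did not include the range of 1 to 2% mitochondrial UMIs alone, where Atf3 was at 0.697 (0.281 to 1.52), above 1/1.5. Jun crossed 1/1.5 in 1 alternative (0.471 to 0.798). Fosl1 was at 1.5 times or more in 11 of 13 in both comparisons (1.32 to 1.81 and 1.31 to 1.70). The number of genes at 1.5 times or more in tag 2 against tag 1 (1 as reported) was 2 where the own tag count was at least 3 times the next (179 cells of tag 2), 0 at a fold of 2, 0 in cells under 0.5% mitochondrial UMIs and 2 in cells at 2% or more, and the number at 1/1.5 or less (1) was 2 with tag cutoffs multiplied by 1.5. In tag 3 against tag 1 the number higher (1) was 0 in cells with 1% to 20% mitochondrial UMIs, 0 at 2% or more and 0 at a fold of 2, and the number lower (5) was 3 at a fold of 2. In tag 4 against tag 2 the number higher (0) was 2 where the own tag was at least 3 times the next, and 1 each with tag cutoffs multiplied by 1.5, in cells with 1% to 20% mitochondrial UMIs, in cells that had Y-linked transcripts but none of Xist, and in cells with no G2/M UMI. The splits by mitochondrial content under 0.5% and from 2%, and by G2/M UMIs, were chosen after seeing the data. The cause of these changes was not tested.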

Other observations

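The 5307 cells with no tag, 40.7% of all cells, could not be assigned to a group of the design. In them Fos was at 47.3 CPM, Fosb at 41, Fosl1 at 98.6, Fosl2 at 89.3, Jun at 145, Junb at 159, Jund at 140, Atf3 at 5.01, Egr1 at 152 and Myc at 30.5 CPM. Their Fos level lay within the interval of tag 2, and their Fosl1 level within those of tags 2 and 3. Their Jund and Fosb levels lay outside the intervals of every tag, and their Jun level below that of tag 2 (147 to 168 CPM). They are therefore not read as like any 1 tag.

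In the cells as sequenced, the highest count of Egr1 in a cell was 41 UMIs, in tag 3, and 33 among cells with no tag, while that of Atf3 was 23 UMIs, in a cell with no tag. After thinning to 5000 UMIs, 1 cell with no tag held 20 UMIs of Egr1 and 1 held 17 UMIs of Atf3, where no cell with 1 tag held more than 13 UMIs of Egr1 or 3 of Atf3. For Jun the highest count in a thinned cell was 12, in tag 1, and for Fos it was 7, also in tag 1.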
